A study of Bos taurus with 6 samples.

Results

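Collagen is finished by a small set of enzymes and 1 dedicated chaperone, and the RNA of 10 of their genes was followed here in bovine embryonic stem cells (bESCs) grown on living or on dead feeder cells. The genes were taken by name: the prolyl hydroxylase subunits P4HA1, P4HA2 and P4HB, the lysyl hydroxylases PLOD1, PLOD2 and PLOD3, the lysyl oxidases LOX, LOXL1 and LOXL2, and the collagen chaperone SERPINH1. They are 10 of the 19163 genes of the count table, and all 10 had enough counts to be among the 13001 genes tested.

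F7 is a single line of bESCs derived from an in vitro fertilised embryo. In MC-F7 (named 1M-F7 in part of the labels) the cells grew on mouse embryonic fibroblasts (MEFs) treated with mitomycin C, which leaves the feeders alive but unable to divide. In MT-F7 they grew on MEFs fixed with methanol, which kills the feeders and leaves their proteins on the dish. Each group had 3 libraries from cells of 15 passages. Both groups were kept in an mTeSR1-based medium without its growth factors, to which FGF and the WNT inhibitor IWR1 were added, and it was changed daily for MC-F7 and every other day for MT-F7. Before RNA extraction the dissociated cells were left on gelatin for a short time and the floating cells were collected, a step that lowers the number of feeders. How many mouse feeder cells remained was not measured here. Only MC-F7 was grown with living feeders, so any RNA they left would be confounded with the groups, and its part in the differences between MC-F7 and MT-F7 cannot be told apart. Alignment rates, which could differ with such RNA, were not analysed here. The sources do not say that replicates were grown apart, so the SDs and p values measure the spread between these libraries, which may be technical.

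In the endoplasmic reticulum, catalytic alpha subunits such as P4HA1 or P4HA2 pair with P4HB (protein disulfide isomerase) to hydroxylate prolines. This makes the collagen triple helix stable at body temperature. The PLOD enzymes hydroxylate lysines, some of which then carry sugars, and SERPINH1 (HSP47) binds the folded triple helix on its way out of the cell. Outside the cell, LOX and its relatives oxidise lysines of collagen and elastin so that neighbouring chains become crosslinked. The prolyl and lysyl hydroxylases need molecular oxygen, iron and ascorbate. Among the genes known in other cells as targets of the hypoxia-inducible factor HIF-1 are P4HA1, P4HA2, PLOD1, PLOD2 and LOX.

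The libraries held 21958386 to 24933430 counts on genes. Genes of the mitochondrial genome took between 16.3% and 28.3% of them (replicate 3 was highest in each group). Levels of 1 gene across libraries are given as counts per 1000000 counts (CPM) on library sizes scaled by the trimmed mean of M values (TMM). The 2 groups were compared by the quasi-likelihood test of edgeR, with Benjamini-Hochberg adjustment over all tested genes, and a gene was called at an adjusted p under 0.05. A positive log2 fold change is higher in MT-F7. The pluripotency markers POU5F1 and NANOG were present in all libraries, and the 4 defining pluripotent markers found in the table summed to 934 to 1560 CPM in MC-F7 and to 577 to 626 CPM in MT-F7. None of the 25 fibroblast markers examined was at or below 3 counts in all libraries. Their summed level was 2274 to 3187 CPM in MC-F7 and 4166 to 5919 CPM in MT-F7, and the 9 defining ones summed to 218 to 292 CPM and 332 to 383 CPM. Most of the sum of these 9 was COL1A1, at 213, 231 and 170 CPM in MC-F7 and 286, 263 and 256 CPM in MT-F7. That gene is also a substrate of the enzymes, and its difference did not pass the test (adjusted p = 0.0942 by edgeR). Because these are bulk libraries, fewer cells of a type and less RNA per cell cannot be told apart. The part of fibroblast-like cells in the results below was not tested.

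P4HA1 and P4HA2, the catalytic prolyl hydroxylase subunits among the 10 genes, and PLOD1 were lower in MT-F7. Of the extracellular crosslinking enzymes, 2 were higher. By edgeR's quasi-likelihood test, 5 of the 10 genes were called, against 23.2% of all tested genes. LOXL1 and LOXL2 rose, where 11.9% of all tested genes rose, and P4HA1, P4HA2 and PLOD1 fell, where 11.3% of all tested genes fell. PLOD3, P4HB, PLOD2, LOX and SERPINH1 did not pass the test. The median log2 fold change of the 10 genes was 0.11, against -0.003 over all tested genes.

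**Figure D1:**
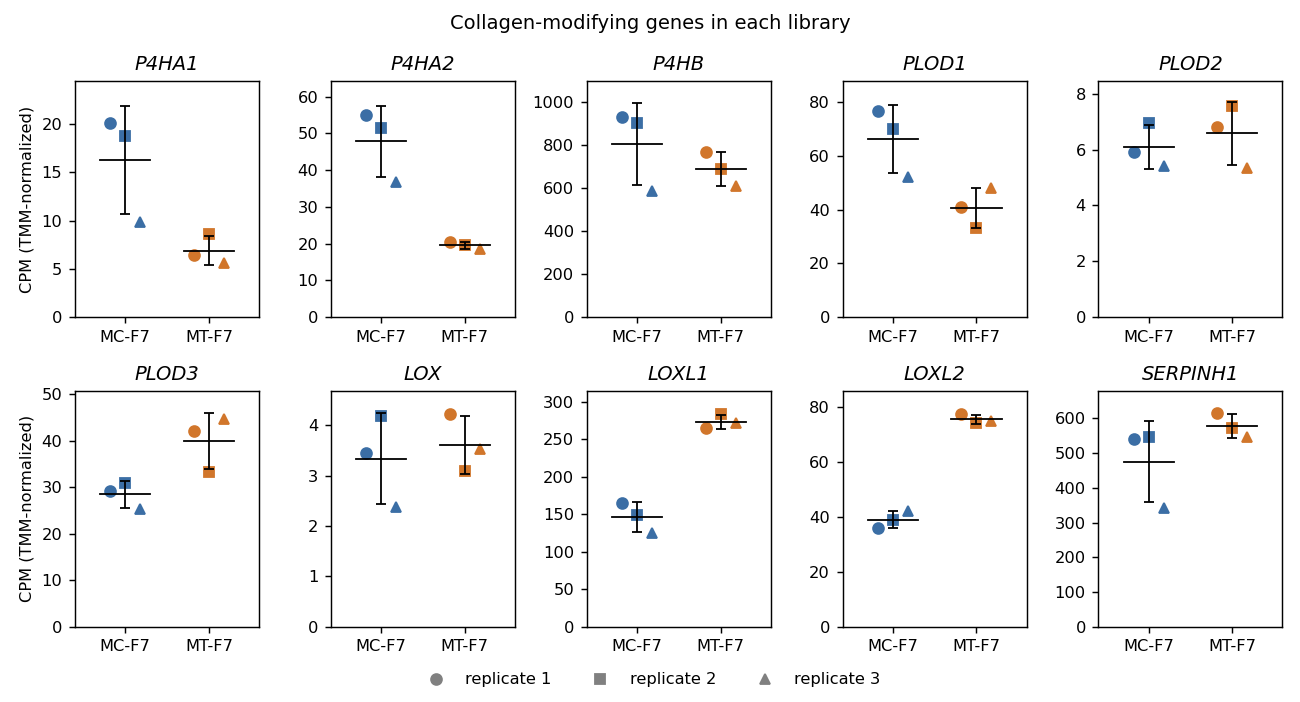
Level of each of the 10 genes in counts per 1000000 (CPM, TMM-scaled; each panel has its own axis), with 1 point per library and a line at the mean of each group, error bars giving the SD of 3 libraries. The 3 MT-F7 points of P4HA1, P4HA2 and PLOD1 lie below all MC-F7 points, and those of LOXL1 and LOXL2 lie above all of them.

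P4HA2 (Entrez 507327) had the lowest log2 fold change of the set. It was at 55.1, 51.6 and 36.8 CPM in MC-F7 and at 20.6, 19.5 and 18.4 CPM in MT-F7, so that every MT-F7 library lay below every MC-F7 library. Its mean fell from 47.8 ± 9.70 to 19.5 ± 1.06 CPM (SD, n = 3), a 2.45-fold lower level (log2 fold change -1.29, SE 0.178, 95% interval -1.68 to -0.91, adjusted p = 2.23e-04 by edgeR).

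P4HA1 (Entrez 518288), the other catalytic subunit among the 10 genes, was at 20.1, 18.7 and 9.82 CPM in MC-F7 and at 6.45, 8.57 and 5.65 CPM in MT-F7. The groups again did not overlap, although MC-F7 replicate 3 was close to the highest MT-F7 library. The mean fell from 16.2 ± 5.59 to 6.89 ± 1.51 CPM (log2 fold change -1.23, SE 0.266, 95% interval -1.81 to -0.66, adjusted p = 0.00496 by edgeR). On the deposited TPM values tested with limma the P4HA1 call was lost, with an adjusted p between 0.0883 and 0.118 over the 3 scales tried. The deposited values were not scaled for library size, and only the rescaled ones took it into account (adjusted p = 0.0883 by limma). On log2(TPM + 1) without rescaling the log2 fold change of P4HA1 was -0.44. Its deposited means were 1.01 (MC-F7) and 0.465 (MT-F7), near or below the added 1, which makes a difference smaller.

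P4HB (Entrez 281373), which also works as a general disulfide isomerase outside the prolyl hydroxylase, was at 927, 900.1 and 585 CPM in MC-F7 and at 766, 686 and 608 CPM in MT-F7. The groups overlapped, with MC-F7 replicate 3 below all MT-F7 libraries, and the difference did not pass the test (log2 fold change -0.23, 95% interval -0.65 to 0.20, adjusted p = 0.440 by edgeR). Its log2 fold change was -0.42 without MC-F7 replicate 3 (adjusted p = 0.0885 by edgeR).

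The catalytic subunits therefore stood lower against their partner in MT-F7. The log2 ratio of P4HA2 to P4HB counts, which does not depend on library size, was -4.06 ± 0.068 in MC-F7 and -5.13 ± 0.088 in MT-F7, without overlap. For P4HA1 to P4HB the mean log2 ratio was -5.67 in MC-F7 and -6.65 in MT-F7, also without overlap. Each had p = 0.1 in an exact two-sided permutation test, the smallest p that 3 against 3 libraries allow, and 0.171 after adjustment over the 12 ratios computed. The proportion of P4HA1 to P4HA2 differed by less than the spread between libraries, with a log2 ratio of -1.61 ± 0.260 (MC-F7) and -1.52 ± 0.291 (MT-F7) (exact permutation p = 0.8).

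Per gene length, P4HA2 made up 69.2% ± 1.5 of the summed alpha subunits in MC-F7 and 66.0% ± 3.64 in MT-F7, and P4HA1 19.6% ± 2.99 and 19.8% ± 3.0. The rest was P4HA3, the remaining alpha subunit, which also fell, from 5.87 ± 0.900 to 3.24 ± 0.341 CPM (log2 fold change -0.86, SE 0.233, adjusted p = 0.0178 by edgeR). P4HB per summed alpha subunits, both per length, was 11.1, 11.7 and 10.9 in the MC-F7 libraries and 24.7, 21.1 and 21.7 in the MT-F7 libraries. The 2 groups of ratios stood far apart relative to their spread, at 11.2 ± 0.414 and 22.5 ± 1.94.

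The lysyl hydroxylases differed among themselves. PLOD1 (Entrez 281409), which acts on lysines of the helical part of collagen, was at 76.9, 69.9 and 52.1 CPM in MC-F7 and at 40.8, 33.0 and 47.9 CPM in MT-F7. The lowest MC-F7 library was above the highest MT-F7 library by a small margin. PLOD1 fell from a mean of 66.3 ± 12.8 to 40.6 ± 7.44 CPM (log2 fold change -0.71, SE 0.188, 95% interval -1.12 to -0.30, adjusted p = 0.0155 by edgeR). This call depended on single libraries: the adjusted p of edgeR was 0.0585 without MC-F7 replicate 1, 0.0711 without MC-F7 replicate 2 and 0.0770 without MT-F7 replicate 2. It was also lost with limma on TPM, at an adjusted p between 0.0853 and 0.129.

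PLOD3 (Entrez 514996), the lysyl hydroxylase that can also add sugars to hydroxylysine, was at 29.1, 31.0 and 25.3 CPM in MC-F7 and at 42.1, 33.2 and 44.6 CPM in MT-F7. All MT-F7 libraries were above all MC-F7 libraries, yet the adjusted p of edgeR was 0.0510, just over the threshold (log2 fold change 0.49, SE 0.166, 95% interval 0.13 to 0.85). DESeq2 gave it an adjusted p of 0.0319, and edgeR gave 0.0387 without MT-F7 replicate 2. Of the 17 alternatives tried, however, 13 did not call it. With any other single library left out the adjusted p of edgeR was between 0.0872 and 0.164. With limma on TPM it was between 0.0551 and 0.0615. PLOD2 (Entrez 533642), which hydroxylates lysines of the collagen telopeptides, ranged from 5.42 to 6.96 CPM in MC-F7 and from 5.35 to 7.57 CPM in MT-F7, and the groups overlapped fully (log2 fold change 0.11, 95% interval -0.36 to 0.58, adjusted p = 0.766 by edgeR).

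The make-up of the PLOD family shifted accordingly. PLOD1 supplied 70.0%, 66.3% and 64.4% of the summed PLOD level per length in the MC-F7 libraries, and 46.9%, 46.4% and 50.3% in the MT-F7 libraries. PLOD3 supplied 25.6%, 28.4% and 30.2% in the MC-F7 libraries, and 46.8%, 45.1% and 45.2% in the MT-F7 libraries. PLOD1 was thus the leading lysyl hydroxylase in MC-F7 and stood about level with PLOD3 in MT-F7. The log2 ratio of PLOD1 to PLOD3 counts was 1.21 ± 0.182 in MC-F7 and 0.017 ± 0.077 in MT-F7, without overlap (exact permutation p = 0.1, the smallest possible). The summed level of the 3 genes overlapped between groups, at 41.2 ± 7.51 and 37.0 ± 3.89 TPM rescaled to 1000000 per library.

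**Figure D2:**
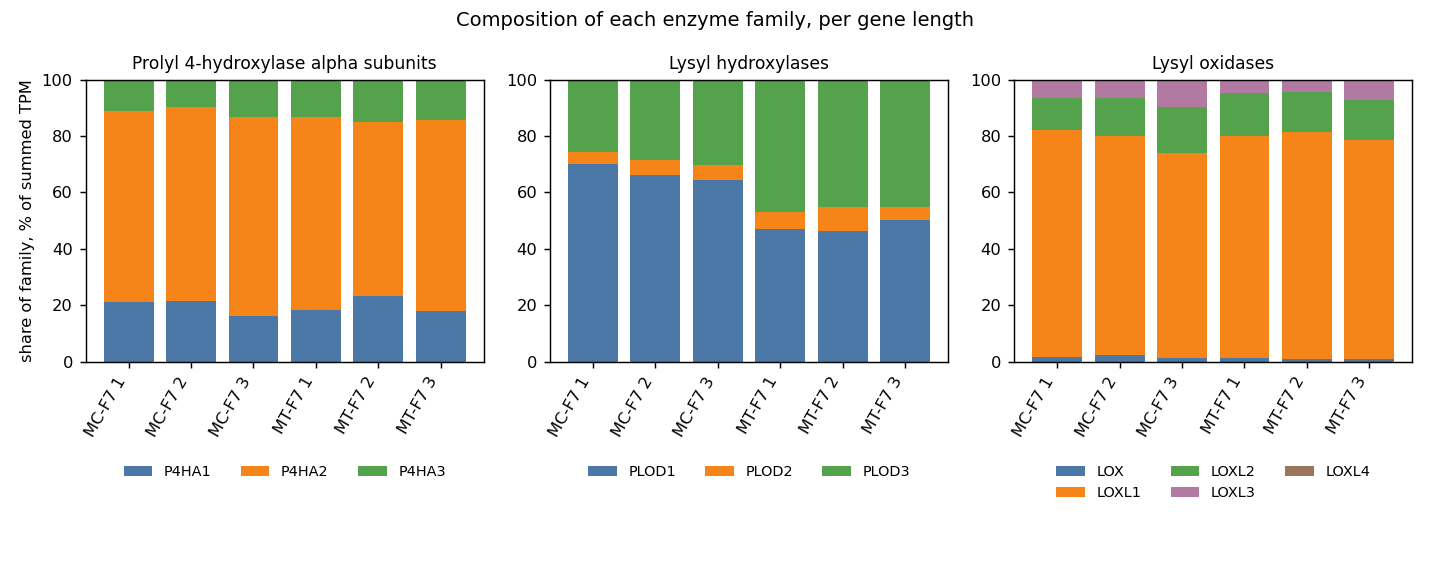
Share of each gene in the summed level per length of its enzyme family (percent of summed TPM), as 1 stacked bar per library of each group, for the prolyl hydroxylase alpha subunits, the PLOD genes and the LOX genes. The mean PLOD1 share was 66.9% ± 2.88 in MC-F7 and 47.9% ± 2.10 in MT-F7, and LOXL1 held 76.9% ± 3.94 and 79.0% ± 1.54 of the LOX family.

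LOXL1 and LOXL2 had the clearest differences of the extracellular enzymes. LOXL1 (Entrez 281903), best known for crosslinking elastin, was at 165, 149 and 125 CPM in MC-F7 and at 264, 284 and 271 CPM in MT-F7. It rose from 146 ± 20.2 to 273 ± 9.65 CPM, 1.87-fold (log2 fold change 0.90, SE 0.154, 95% interval 0.57 to 1.24, adjusted p = 0.00106 by edgeR). LOXL2 (Entrez 532684), which crosslinks collagen IV of basement membranes, was at 36.0, 39.1 and 42.2 CPM in MC-F7 and at 77.6, 74.3 and 74.9 CPM in MT-F7. Neither gene had overlapping groups, and LOXL2 had the smallest SD relative to its mean of the 10 genes within MT-F7. LOXL2 rose from 39.1 ± 3.13 to 75.6 ± 1.73 CPM, 1.93-fold (log2 fold change 0.95, SE 0.143, 95% interval 0.64 to 1.26, adjusted p = 4.40e-04 by edgeR). LOXL1, LOXL2 and P4HA2 passed the test under all 17 alternatives tried for single genes.

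LOX (Entrez 280841), the founding member of the family, was at 3.45, 4.19 and 2.38 CPM in MC-F7 and at 4.22, 3.09 and 3.52 CPM in MT-F7. Its groups overlapped, and the interval allowed a change in either direction (log2 fold change 0.11, 95% interval -0.49 to 0.71, adjusted p = 0.817 by edgeR). Without MC-F7 replicate 3 the sign turned, to -0.09 (adjusted p = 0.855 by edgeR). LOX stood lower against its relatives in MT-F7, since the mean log2 ratio of LOX to LOXL1 counts was -5.48 in MC-F7 and -6.25 in MT-F7 and that of LOX to LOXL2 was -3.58 and -4.40, both without overlap (exact permutation p = 0.1 each). LOXL1 and LOXL2 differed together, with a log2 ratio of 1.89 ± 0.319 and 1.85 ± 0.081 (exact permutation p = 0.9). Of the family members outside the 10 genes, LOXL3 had a log2 fold change of 0.41 (adjusted p = 0.190 by edgeR), and LOXL4 had at most 16 counts in any library.

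SERPINH1 (Entrez 510850) was at 539.8, 546.7 and 341 CPM in MC-F7 and at 616, 573 and 547.2 CPM in MT-F7. The groups touched without overlapping on this scale and overlapped per length, and the difference did not pass the test (log2 fold change 0.28, SE 0.190, 95% interval -0.13 to 0.69, adjusted p = 0.315 by edgeR). Most of it came with MC-F7 replicate 3: without that library the log2 fold change was 0.09 (adjusted p = 0.739 by edgeR). Against P4HB in the same library the chaperone was steadier. The log2 ratio of SERPINH1 to P4HB counts was -0.76 ± 0.034 in MC-F7 and -0.24 ± 0.083 in MT-F7, without overlap (exact permutation p = 0.1, the smallest possible).

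**Figure D3:**
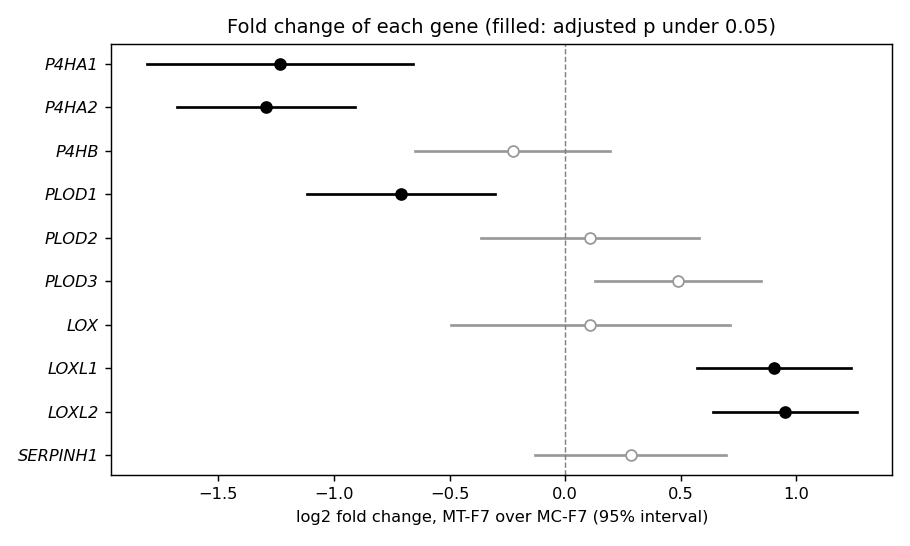
Log2 fold change of MT-F7 over MC-F7 for each of the 10 genes by edgeR, with the 95% interval as a line and filled points where the adjusted p was under 0.05. The intervals of P4HA1, P4HA2 and PLOD1 lie below 0 and those of LOXL1, LOXL2 and PLOD3 above it, although PLOD3 had an adjusted p of 0.0510.

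Over the 10 genes, the MT-F7 libraries lay all above the MC-F7 libraries for 4 (LOXL1, LOXL2, PLOD3 and SERPINH1), against 19.9% of tested genes, and all below for 3 (P4HA1, P4HA2 and PLOD1), against 20.1%, and for 40.0% of tested genes the groups did not overlap in either direction. MC-F7 replicate 3 was the lowest of its group in 9 of the 10 genes, LOXL2 being the exception, while it was the lowest for 40.7% of all tested genes. Its level relative to the mean of the other 2 MC-F7 libraries was 0.505 for P4HA1, 0.628 for SERPINH1, 0.640 for P4HB and 1.12 for LOXL2, with a median of 0.983 over tested genes. This library also had the highest mitochondrial share, 28.3%, and whether the low levels go with RNA quality was not tested. Without it, 5 of the 10 genes were called by edgeR, with PLOD1 at a log2 fold change of -0.86 (adjusted p = 0.00336) and PLOD3 at 0.40 (adjusted p = 0.118).

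**Figure D4:**
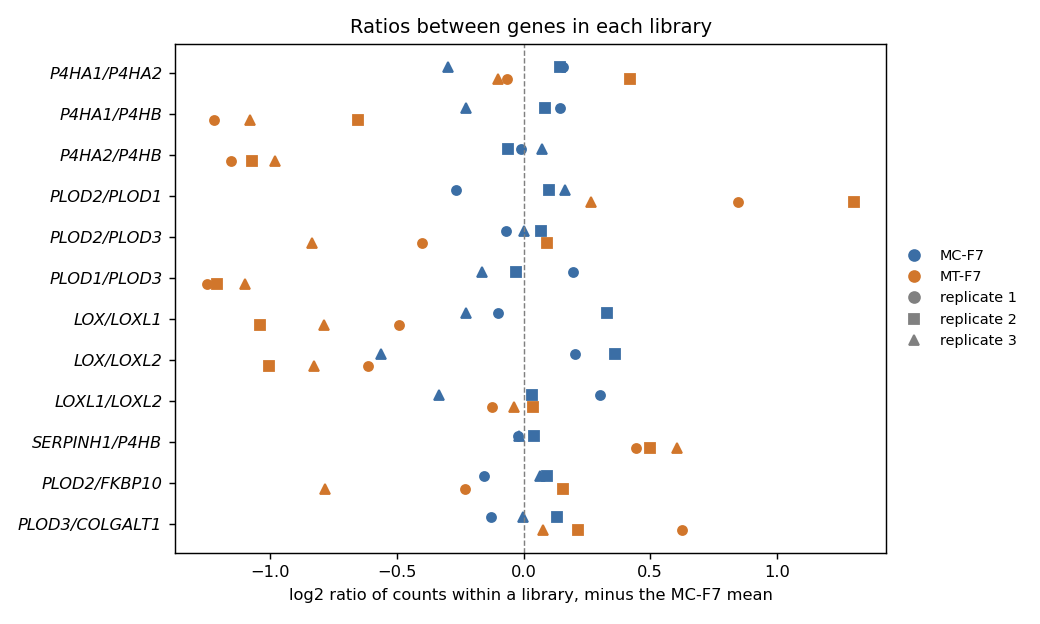
Log2 ratio of the counts of 2 genes within each library minus the MC-F7 mean of that ratio, with 1 point per library, for the 12 ratios compared. In 7 of the 12 the groups did not overlap, among them PLOD1 to PLOD3, with the MT-F7 mean at -1.19 from that of MC-F7, and SERPINH1 to P4HB, at 0.52. Among single tested genes 40.0% did not overlap, and the share over other gene pairs was not computed. All of the 7 but SERPINH1 to P4HB pair a called gene with one that was not called.

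Between genes, levels were compared per length on TPM after each library was rescaled to 1000000. The order in MC-F7 was P4HB (354 ± 92.4), SERPINH1 (272 ± 73.9), LOXL1 (78.5 ± 12.3), PLOD1 (27.7 ± 5.87), P4HA2 (21.7 ± 4.88), LOXL2 (13.9 ± 1.04), PLOD3 (11.5 ± 1.58), P4HA1 (6.31 ± 2.29), PLOD2 (2.05 ± 0.34) and LOX (1.79 ± 0.55). The libraries of P4HB and SERPINH1, of PLOD1 and P4HA2, of LOXL2 and PLOD3, and of PLOD2 and LOX overlapped, so these neighbours were not separated. In MT-F7 the order was SERPINH1 (348 ± 32), P4HB (320 ± 46.7), LOXL1 (155 ± 11), LOXL2 (28.4 ± 1.45), PLOD1 (17.8 ± 2.47), PLOD3 (16.9 ± 1.95), P4HA2 (9.33 ± 0.84), P4HA1 (2.83 ± 0.74), PLOD2 (2.34 ± 0.50) and LOX (2.03 ± 0.32). Here SERPINH1 and P4HB, PLOD1 and PLOD3, P4HA1 and PLOD2, and PLOD2 and LOX overlapped. P4HA2 stood above LOXL2 in MC-F7 and below it in MT-F7, with no overlap in either group. The highest level was 198.1 times the lowest in MC-F7 and 171.4 times in MT-F7.

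The substrates of these enzymes were in part higher in MT-F7. Of 18 genes of fibrillar and basement membrane collagens and elastin, 15 were tested. By edgeR 10 rose and none fell, where 11.9% of all tested genes rose and 11.3% fell. The median log2 fold change of the 15 was 0.84. COL3A1 (1.65), the basement membrane chains COL4A6 (1.62) and COL4A5 (1.53), and ELN, elastin (1.32), rose most. COL1A1, the main chain of collagen I, did not pass (0.39, adjusted p = 0.0942). The study reported collagen IV as higher in MT-F7 from these same libraries. It was counted as naming 2 of the 15, and of the other 13, 8 rose. These 8 include collagen IV chains, so they are not all independent of that report. P4HA1, P4HA2 and PLOD1 were thus lower, and LOXL1 and LOXL2 higher, in the same libraries in which 10 substrate genes were higher.

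Other genes of collagen modification and secretion gave no common direction. Of 26 tested, 8 were called (30.8%, against 23.2% of all tested genes). Of these 8, 2 were higher and 6 lower, where 11.9% of all tested genes rose and 11.3% fell. The median log2 fold change of the 26 was -0.04. CREB3L1, a transcription factor that drives collagen secretion genes, fell from 92.7 ± 8.63 to 29.7 ± 1.02 CPM (log2 fold change -1.64). TRAM2 (-1.14), TLL2 (-0.93) and P4HA3 (-0.86) followed, while P3H2, a prolyl 3-hydroxylase of basement membrane collagen, rose (1.84, adjusted p = 8.9e-04 by edgeR), as did ADAMTS3 (1.39, adjusted p = 0.0305 by edgeR), which cleaves procollagen. Partners of the 10 genes did not pass: P3H1 had a log2 fold change of 0.17, CRTAP 0.45, PPIB -0.05, COLGALT1 0.20 and FKBP10 0.39. The log2 ratio of PLOD2 to FKBP10, its chaperone, differed by -0.29 between groups and that of PLOD3 to COLGALT1 by 0.31, both with overlap.

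Among hypoxia-responsive genes, which hold none of the 10 genes, 23 of 33 tested fell and none rose, with a median log2 fold change of -1.02. Of all tested genes 11.3% fell and 11.9% rose. BNIP3 (-4.20), LDHA (-4.05), ADM (-3.89) and SLC2A3 (-3.27) fell most. The study had named 14 of the 33 from these same libraries, so they are not independent evidence of the direction, and of the other 19, 9 fell, with a median of -0.65. Of the 5 genes named above as HIF-1 targets in other cells, P4HA1 and P4HA2 (-1.23 and -1.29) and PLOD1 (-0.71) fell, and PLOD2 and LOX, at 0.11 each, did not pass the test. These 5 are not a complete list of such targets. Whether LOXL1 (0.90) and LOXL2 (0.95), which rose, belong to such targets was not examined here. Endoplasmic reticulum folding proteins, the surroundings of P4HB and SERPINH1, gave 0 calls of 18 by edgeR, against 23.2% of all tested genes. Of these 18, 5 had an unadjusted p under 0.05 by edgeR, and DESeq2 called 2 (PDIA4 and DNAJB11). Their median log2 fold change was 0.17.

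Markers of fibroblasts and of pluripotent cells moved in the same comparison. Of all tested genes 11.9% rose and 11.3% fell. Of 24 fibroblast markers tested, 11 rose and 1 fell, with a median log2 fold change of 0.49. ACTA2 (1.86), COL3A1 (1.65), FBLN1 (1.6) and CCN2 (1.49) rose most, TWIST2 fell (-2.15), and 3 of the markers are also in the substrate list. Of 9 pluripotent markers tested, 7 fell, led by DPPA4 (-3.22), ZFP42 (-2.73), TDGF1 (-2.65) and NANOG (-2.02), with a median of -1.20. The study had named 2 of the fibroblast and 5 of the pluripotent markers, which are not independent evidence of direction, and among the rest 9 of 22 and 0 of 4 rose and 1 of 22 and 3 of 4 fell. LOXL1 and LOXL2 are expressed by fibroblasts as well as by other cells, and the part of the marker change in their rise was not tested.

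**Figure D5:**
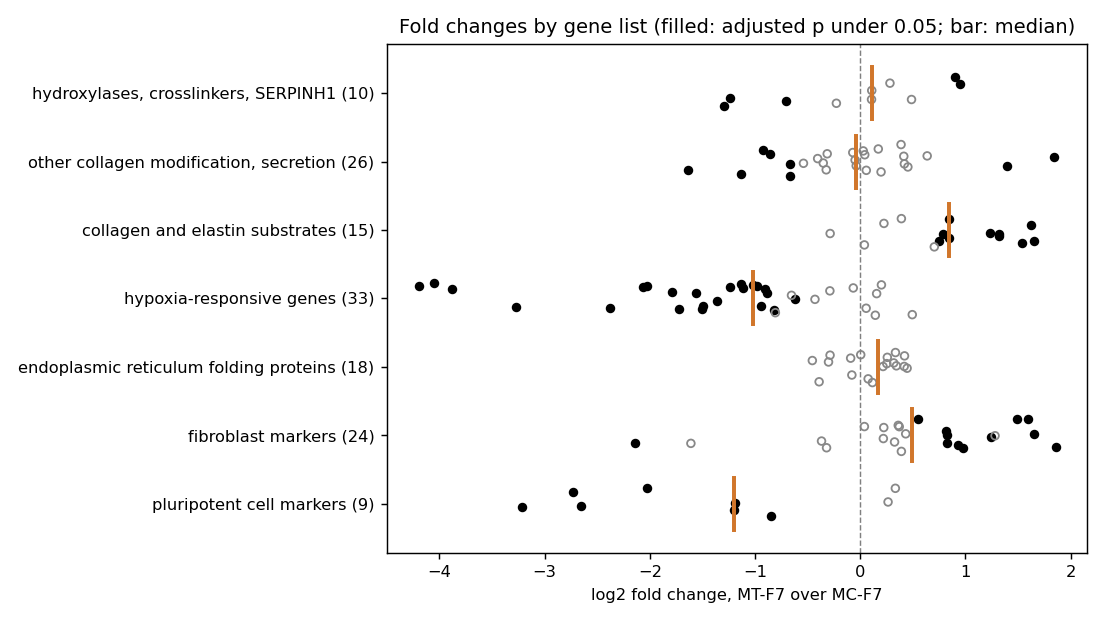
Log2 fold change (MT-F7 over MC-F7, edgeR) of every tested gene in each list, with 1 point per gene, filled where the adjusted p was under 0.05, a solid line at the median of the list and a dashed line at the median of all tested genes. The substrate list has a median of 0.84 and the hypoxia list of -1.02, while the 10 genes lie on both sides of 0 with a median of 0.11.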

How the data were processed

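RNA-seq libraries of F7 cells on mitomycin C-treated (MC-F7) or methanol-fixed (MT-F7) MEFs were used, 3 per group. The authors aligned reads with HISAT2 2.0.5, counted them on genes with featureCounts 1.5.0-p3 and deposited raw counts per Entrez gene. The genome build and the strand setting are not given in the sources used here. The deposited TPM values summed to 154763 to 164394 per library and were rescaled to 1000000 over 21357 Ensembl genes. The ratio of TPM to counts varied across libraries by at most 1.04e-06% of its mean for the 122 listed genes compared (at least 20 counts in every library). The deposited values thus carried no scaling for library size before they were rescaled.

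Counts were tested with edgeR 4.0.16 (R 4.3.3, TMM, filterByExpr with minimum count 10 and minimum total 15, quasi-likelihood test, two-sided, Benjamini-Hochberg over 13001 genes). The 95% intervals used the t distribution. Ratios between 2 genes were compared by an exact permutation test over libraries. Symbols came from RefSeq, and 138 of 144 listed symbols were in the count table. Alternatives used DESeq2 1.42.0 and limma 3.58.1. The procedure was tested on simulated data.

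The 10 genes and all lists were chosen with earlier results of these data known. Named genes are the 10, their family members and partners, up to 4 called genes of largest absolute log2 fold change per list and direction, and the 3 genes nearest to each of the 10. COL2A1, COL1A1, POU5F1, PDIA4 and DNAJB11 were named after their values were seen. No sequence is shown.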

Additional observations from a re-analysis of the deposited data

How the results depend on the processing

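Of the 10 genes, 5 were called, and 4 to 5 when single libraries were left out (2 to 3 higher, 2 to 3 lower). Limma on log2(TPM + 0.1), on log2(TPM + 1) and on rescaled TPM called 3, 3 and 3, with 1 lower each, because P4HA1 and PLOD1 were lost. An absolute log2 fold change over 1 left 2 (0 higher), and one over 1.5 with an unadjusted p left 0 (0 higher, 0 lower). The 3016 calls over all genes became 1489 and 856 under these limits, and 1914 to 3093 with single libraries left out, the lowest without MC-F7 replicate 2. For the other lists the limits of 1 and 1.5 left 4 and 2 collagen modification genes, 6 and 3 substrates, and 6 and 5 fibroblast markers, and the limit of 1.5 left 11 hypoxia-responsive genes and 4 pluripotent markers. Limma on rescaled TPM called 5 collagen modification genes. Leaving out single libraries gave 4 to 8, 10 to 11, 9 to 11, 21 to 25 and 6 to 7 in these lists, in this order, and 0 to 2 folding proteins, of which DESeq2 called 2 and the fit without replicate 3 of both groups 5.

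Same-numbered libraries deviated together with r of 0.134, 0.0445 and 0.417, and differently numbered ones with r from -0.323 to 0.279. The highest value was that between the replicates 3, and whether these share a source of variation was not tested. The main test did not take the numbers as pairs. The replicate block gave 4674 calls over all genes, 6 of the 10 genes (PLOD3 added), 13 collagen modification genes and 5 folding proteins.

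The sign turned for PLOD2 without MT-F7 replicate 2 (-0.0029), for LOX without MC-F7 replicate 3 (-0.088), MT-F7 replicate 1 (-0.025) and replicate 3 of both groups (-0.050), for the log2 ratio of P4HA1 to P4HA2 without MC-F7 replicate 3 (-0.065) or MT-F7 replicate 2 (-0.083), and for LOXL1 to LOXL2 without MC-F7 replicate 1 (0.109). Over single libraries left out, these 4 values reached 0.23 for PLOD2, 0.31 for LOX, 0.178 for P4HA1 to P4HA2 and -0.209 for LOXL1 to LOXL2 at their other end. The cause was not tested. With 3 libraries a group, a permutation p cannot go below 0.1, and LOX, which had the fewest counts of the 10 genes, had the largest SE (0.278).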

Other observations

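The balance between the enzymes and their substrates was computed after the values had been seen and is given as a description. The 15 collagen genes of the substrate list found in the count table summed to 391 ± 22.1 rescaled TPM in MC-F7 and to 717 ± 86.5 in MT-F7 (mean and SD of 3 libraries), with COL2A1, the chain of cartilage collagen, as the largest part (258.7 ± 15.8 and 489.4 ± 72.7). Per 100 of these collagens, the prolyl hydroxylase alpha subunits stood at 8.11 ± 2.24 (MC-F7) and 2.02 ± 0.464 (MT-F7), the PLOD genes at 10.6 ± 2.26 and 5.17 ± 0.350, and P4HB at 91.4 ± 26.2 and 45.4 ± 10.7, each without overlap between groups. For P4HB (354 ± 92.4 and 320 ± 46.7 rescaled TPM) and the summed PLOD genes (41.2 ± 7.51 and 37.0 ± 3.89) the levels themselves overlapped. Their lower values per 100 thus come mainly from the larger collagen sum. The LOX family stood at 26.2 ± 3.94 and 27.7 ± 4.52 per 100, and SERPINH1 at 70.0 ± 20.5 and 49.3 ± 9.45, both with overlap. The pattern of overlap was the same without COL2A1.

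Across the 6 libraries, the genes most like each enzyme were listed by Pearson's r of log2(CPM + 0.1), given as a description. For the called genes this r mostly follows the difference between the groups. For those not called, such as P4HB and SERPINH1, it can follow the spread within a group, such as the low MC-F7 replicate 3. SERPINH1 was most like CALR (r = 0.987), UROD and LOC616039, and P4HB was most like TMED2 (r = 0.998), ATP5MC3 and NDUFA1. P4HA1 was nearest to SESN1, MAN1A1 and DPP3, P4HA2 to BARX1, HRH3 and SYNGR1, PLOD1 to C7H1orf35, NEU1 and TRPV2, and PLOD3 to MOB3B, PCDH12 and RPUSD3. LOXL1 was nearest to AGTR1, CAPG and SSBP2, LOXL2 to HECTD2, SGSH and P2RY2, PLOD2 to ECM2, ZNG1A and SLC25A44, and LOX to MIEF2, C14H8orf88 and CALR3. Many genes were nearly as close: 510 genes had an r above 0.95 with LOXL1, 477 with LOXL2 and 458 with P4HA2, but 14 with PLOD2 and 8 with LOX.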
